A study of Mus musculus with 18 samples.

Results

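The miR-379/miR-410 cluster is a run of miRNA hairpins on mouse chromosome 12, and its members were taken as every mature miRNA whose deposited row lies in a fixed window of that chromosome in the mm10 assembly. The members found in the window run from miR-379, which starts at position 109709065, to miR-3072, which ends at 109747949. This rule, which used positions and no measured value, gave 77 of the 1907 mature miRNAs in the table, from 39 precursors, with 38 from the 5p arm, 38 from the 3p arm and 1 (miR-453) without an arm in its name. The study sequenced small RNAs under 200 nt from NIH/3T3 cells, an immortalized mouse embryonic fibroblast line, before (input) and after immunoprecipitation (IP) with a mouse monoclonal antibody to pseudouridine (Ψ), the isomer of uridine that Ψ synthases make. The paper's protocol for the IP also describes a gel extraction to a narrower size range before the antibody was added. The cells were either wild type (WT) or under knockdown of Pus1, which encodes a Ψ synthase, for 3 days (KD3) or 6 days (KD6). Each of the 6 combinations (WT input, WT IP, KD3 input, KD3 IP, KD6 input and KD6 IP) had 3 replicates, A, B and C. All libraries came from the same cell line, the knockdown agent and any control treatment of WT cells are not given in the sources used here, and the Pus1 transcript was not analysed here. The study speaks of biological replicates in general, and the labels do not say whether A, B and C were separate cultures, so p-values measure the spread between these libraries, which may be partly technical.

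The cluster lies in the imprinted Dlk1-Dio3 domain, where protein-coding genes are transcribed from the paternal chromosome and the noncoding RNAs, this cluster included, from the maternal one. Its hairpins are cut by Drosha from long noncoding transcripts and then by Dicer into a duplex, from which an Argonaute protein keeps mainly one strand, the 5p or the 3p arm. The cluster is best known from brain and placenta: miR-134 restrains dendritic spine growth by repressing Limk1, and mice that lack the cluster handle glucose and fat poorly around birth. The seed of a miRNA, its bases 2 to 8, is the main determinant of which transcripts it pairs with.

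The mature sequences below (RefSeq, GRCm38.p6, 5′ to 3′, seed in capitals) belong to members named in the IP results. RefSeq gave a mature sequence for 73 of the 77 members, and miR-376c-3p, miR-487b-3p, miR-539-3p and miR-485-5p are named only. Members that fell in IP are shown first, 3 abundant ones and the low pair miR-376a-3p and miR-376b-3p. Next are both arms of miR-409, miR-382, miR-667 and miR-411, whose arm ratio shifted in WT. Both arms of miR-379 and miR-541-5p follow, none of which passed in WT. Last are miR-543-3p, which rose, and its near relative miR-495-3p, which did not.
miR-381-3p: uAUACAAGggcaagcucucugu
miR-300-3p: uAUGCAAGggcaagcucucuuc
miR-299a-3p: uAUGUGGGacgguaaaccgcuu
miR-376a-3p: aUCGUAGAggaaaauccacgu
miR-376b-3p: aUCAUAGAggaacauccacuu
miR-409-5p: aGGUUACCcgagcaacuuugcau
miR-409-3p: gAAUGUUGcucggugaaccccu
miR-382-5p: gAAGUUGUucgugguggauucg
miR-382-3p: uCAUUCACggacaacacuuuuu
miR-667-5p: cGGUGCUGguggagcagugagcacg
miR-667-3p: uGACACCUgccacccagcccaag
miR-411-5p: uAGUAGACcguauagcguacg
miR-411-3p: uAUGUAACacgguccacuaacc
miR-379-5p: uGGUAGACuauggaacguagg
miR-379-3p: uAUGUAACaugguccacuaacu
miR-541-5p: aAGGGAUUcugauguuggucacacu
miR-543-3p: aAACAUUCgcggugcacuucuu
miR-495-3p: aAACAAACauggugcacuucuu

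These sequences all lie on the plus strand of chromosome 12. The most upstream, miR-379-5p, occupies chr12:109709065-109709085 and miR-381-3p occupies chr12:109726870-109726891, both outside any other annotated gene. miR-300-3p (chr12:109724363-109724384), miR-299a-3p (chr12:109710676-109710697) and miR-543-3p (chr12:109717304-109717325) are also outside other genes. Toward the far end, miR-382-5p (chr12:109733781-109733802) and miR-382-3p (chr12:109733819-109733840) lie on a hairpin partly in an exon of Mirg, a noncoding host gene, miR-134-5p (chr12:109734145-109734166) in a Mirg exon, and miR-541-5p (chr12:109742422-109742446), miR-409-5p (chr12:109743172-109743194) and miR-409-3p (chr12:109743204-109743225) in Mirg introns. By the GENCODE M21 annotation of GRCm38, 25 of the 39 hairpins lay outside other genes, 4 lay wholly and 5 partly in Mirg exons, and 5 lay in Mirg introns. The rule also took in miR-3072, which lies beyond miR-410.

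Some members are close in sequence, which bears on how reads were assigned. miR-381-3p and miR-300-3p matched at 19 of 22 positions, and 1 of the 3 differences was in the seed. miR-379-3p and miR-411-3p matched at 20 of 22 positions and had the same seed. The 18 bases of miR-299b-3p, cut from the opposite strand, are identical to the start of miR-299a-3p, so the split of short reads between these entries is uncertain. No seed was shared by more than 2 of the members tested.

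Mapped reads per library ranged from 241109 to 15099781. The smallest library was replicate A of the KD6 input, and the others had at least 3989031. Reads that fell in no miRNA row made up 5.47 to 9.96% of mapped reads in the inputs and 14.8 to 38.2% in the IPs, and the part of these other RNAs in the IP results was not tested. All 8 fibroblast marker miRNAs had over 3 counts in every input, with 442362 to 599364 CPM in sum (CPM, counts scaled to a common library size), whereas the summed CPM of blood, epithelial, pluripotent and muscle lists was at most 2.19. The neuron list stood at 3013 to 3658 CPM and the liver miRNA at 23.1 to 84.6 CPM. Of the 77 members, 6 had no read, 15 had some reads but too few to test, at most 81 over all libraries, and 56 entered the tests (24 from the 5p arm and 32 from the 3p arm). A member could pass that filter through the group in which it was high.

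The cluster's share of miRNA reads was 1.02% ± 0.02 (SD, n = 3) in WT input. Its share was 1.49% ± 0.04 in KD3 input and 1.11% ± 0.01 in KD6 input, and the 3 inputs did not overlap, with 1.00 to 1.04% in WT, 1.45 to 1.53% in KD3 and 1.09 to 1.12% in KD6. After IP the share was 0.862% ± 0.055 in WT, 1.19% ± 0.06 in KD3 and 0.717% ± 0.063 in KD6. In each condition every IP library was below every input library.

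A member with many reads in input, miR-381-3p, was nearly missing in IP. It made up 22.0 to 24.4% of cluster reads in the WT inputs, against 0.223 to 0.401% in the WT IPs. Its share was 25.6 to 26.6% in KD3 input against 0.308 to 0.430% in KD3 IP, and 17.9 to 25.9% in KD6 input against 0.377 to 0.475% in KD6 IP. Without miR-381-3p, the rest of the cluster had a share of 0.788% ± 0.008 before IP in WT cells and of 0.859% ± 0.056 after it, where the libraries overlapped between 0.780 to 0.797% and 0.795 to 0.894%. In KD3 the rest of the cluster held 1.10% ± 0.03 in input and 1.19% ± 0.06 in IP, and in KD6 0.879% ± 0.044 and 0.714% ± 0.063. In KD6 the rest of the cluster lay lower in every IP library (0.643 to 0.763%) than in every input library (0.828 to 0.911%), while in KD3 the 2 groups overlapped. With miR-381-3p counted, reads of 5p arms were 55.9% ± 1.2 of cluster reads in the WT inputs, against 70.0% ± 2.0 in the WT IPs. On that count the 5p share of every IP library exceeded that of every input library in each of the 3 conditions. Because miR-381-3p is a 3p member, its near absence from IP raises the 5p share by itself. In WT input 3p arms held 44.1% of cluster reads, with miR-381-3p alone at 23.0%. In WT IP they held 30.0%, with miR-381-3p at 0.315%. The mean 5p share was 56.1% in KD3 input and 77.9% in KD3 IP, and 58.6% in KD6 input and 70.9% in KD6 IP. Among reads of the other members only, the mean 5p share was not higher in IP than in input in WT or KD6. It was higher in KD3, and these differences were not tested.

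**Figure D1:**
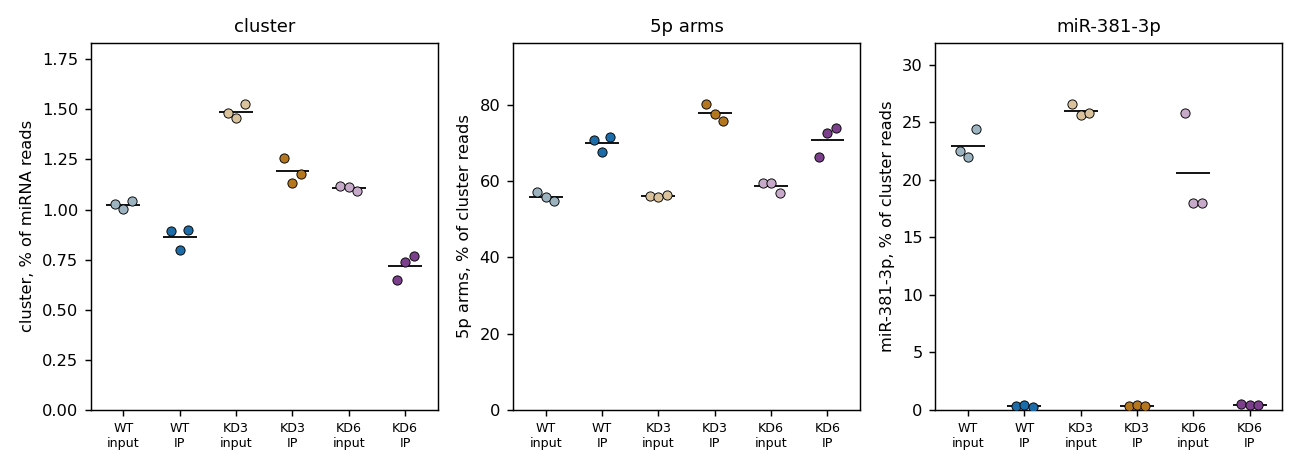
Each point is 1 library and each line the mean of 3, for the cluster's share of miRNA reads (left), the share of cluster reads from 5p arms (centre) and the share of cluster reads from miR-381-3p (right), all in percent. The share of miR-381-3p lies above 17% in every input library and below 0.5% in every IP library.

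Comparing IP with input asks which members the Ψ antibody recovered more or less than other miRNAs. In WT cells 11 of the 56 tested members were higher in IP and 27 were lower, while 18 did not pass an adjusted p under 0.05. Among all 550 miRNAs tested, 361 (65.6%) passed, 140 (25.5%) higher and 221 (40.2%) lower, so the share of the cluster called, 67.9%, was near that of all miRNAs. The median log2 ratio of the cluster was −1.06, against −0.35 for all miRNAs, and stood at −0.86 for its 5p members and −1.63 for its 3p members, whereas all 3p miRNAs had a median of −0.39. For 44 of the 56 members, and for 403 (73.3%) of all miRNAs, the IP libraries lay wholly above or below the inputs. The zero of this scale depends on how libraries are scaled, since the median of all miRNAs moved to −0.04 with RLE factors (the median-ratio method), so ratios are also given relative to the median of all miRNAs. With any 1 WT library left out, TMM factors gave 17 to 19 members higher and 16 to 19 lower in WT, and RLE factors 11 to 14 higher and 22 to 24 lower. Under RLE factors with a library left out, the cluster median minus that of all miRNAs lay between −0.80 and −0.62.

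**Figure D2:**
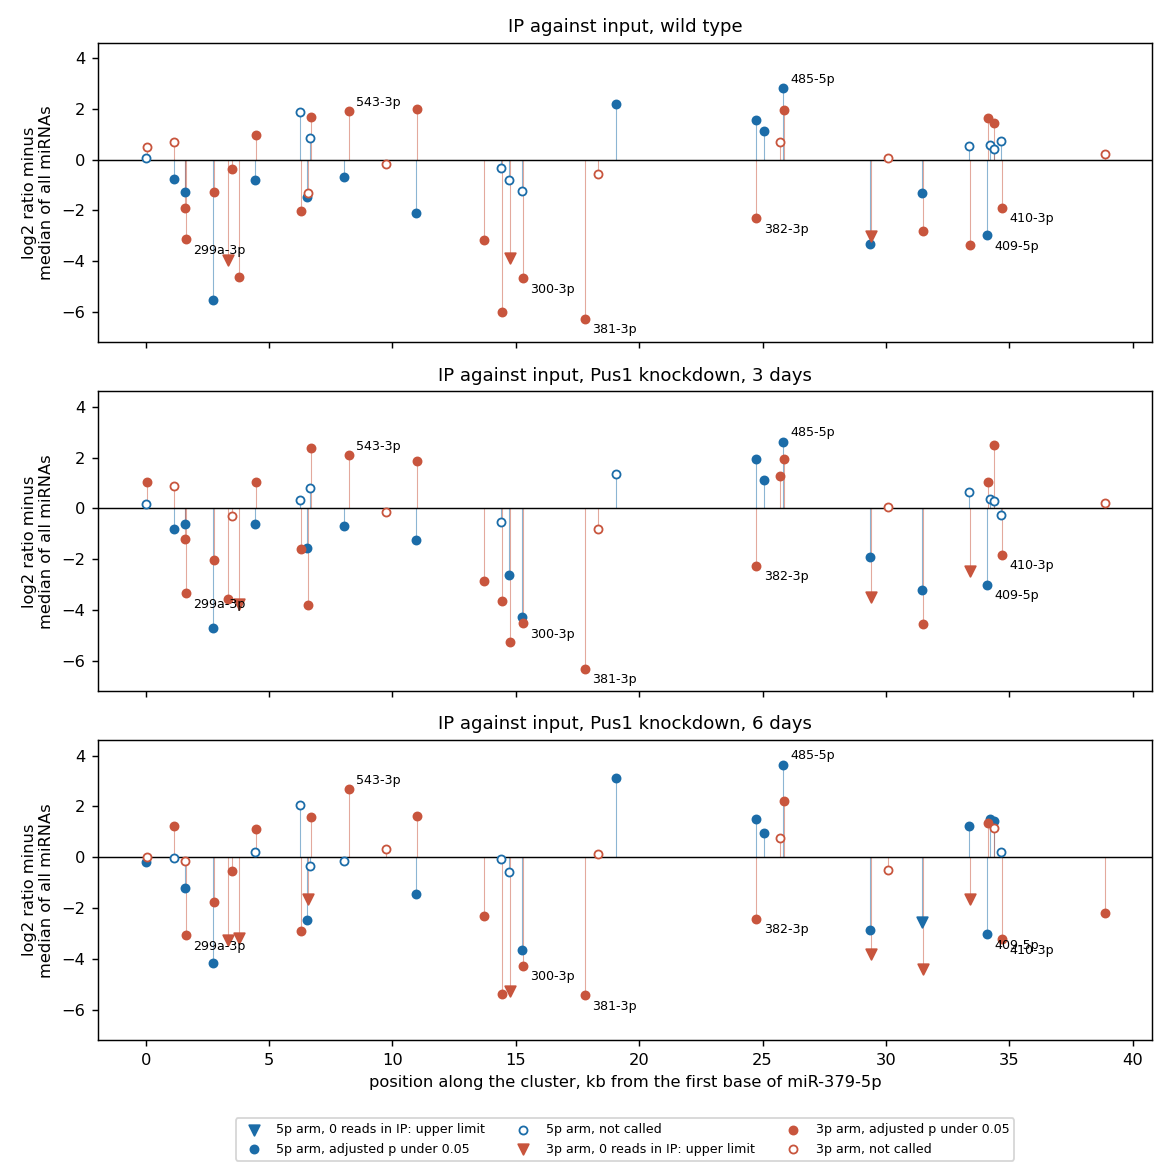
Log2 ratio of IP to input for the 56 tested members, minus the median of all 550 miRNAs, against position along the cluster in kb, for WT, KD3 and KD6. Filled circles passed an adjusted p under 0.05, open circles did not, and triangles mark the highest ratio that 0 reads in every IP library allows. miR-381-3p, miR-300-3p and miR-409-5p are low, and miR-485-5p and miR-543-3p high, in all 3 panels.

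The members that fell furthest among the abundant ones were miR-381-3p and its near-identical relative miR-300-3p. CPM, here on library sizes scaled by TMM, of miR-381-3p was 2440, 2224 and 2767 in the WT inputs and 25.6, 30.7 and 19.5 in the WT IPs. The 2 groups lay far apart, with a log2 ratio of −6.62 ± 0.27 (SE, n = 3 per group, adjusted p = 7.2e-15, edgeR quasi-likelihood with Benjamini-Hochberg adjustment), which was −6.27 relative to the median. miR-300-3p stood at 454, 432 and 472 CPM in input and at 14.3, 15.7 and 12.02 CPM in IP, a log2 ratio of −5.01 ± 0.28. miR-381-3p was the second most abundant member over all inputs, at 2803 CPM, and had 34.3 CPM over all IPs.

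Further members were lower by smaller amounts and were as clearly separated. miR-299a-3p, which shares its seed with miR-299b-3p, read 422, 365 and 412 CPM in WT input and 38.0, 35.8 and 33.9 CPM in WT IP (log2 ratio −3.48 ± 0.31). miR-409-5p read 120, 98.8 and 94.8 CPM in input and 10.3, 10.8 and 9.97 CPM in IP (−3.34 ± 0.29). miR-382-3p read 193, 195 and 203 CPM in input and 32.0, 29.6 and 32.5 CPM in IP (−2.65 ± 0.26). For each of the 3 members every IP library was below every input library, and their adjusted p-values were 4.3e-09, 2.1e-09 and 1.4e-08 (edgeR's quasi-likelihood test after Benjamini-Hochberg adjustment).

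Several low members had few or no reads left in IP. miR-376a-3p, a member whose adenosine-to-inosine edited form is well studied in brain, had 7.0, 22 and 75.5 counts in the WT inputs and 0 in each WT IP, so it was at least 18.7-fold lower when 3 counts over the IP group are taken as the limit. miR-1197-3p, with 40, 43 and 28 counts in the WT inputs and 0 in each WT IP, was at least 19.9-fold lower. Fitted ratios of such members depend on a prior count, and 3 tested members in WT, 3 in KD3 and 8 in KD6 had 0 reads in every IP library of their condition. Putting them at their limit left the cluster medians at −1.06, −0.90 and −0.79.

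The 11 members that were higher in WT IP were 4 from the 5p arm and 7 from the 3p arm. miR-543-3p stood at 92.9, 159 and 167 CPM in WT input and at 341, 485 and 415 CPM in WT IP, with a log2 ratio of 1.56 ± 0.25 (adjusted p = 1.6e-05, edgeR quasi-likelihood with Benjamini-Hochberg adjustment). Its relative miR-495-3p, identical at 18 of 22 positions and different at 2 seed positions, had 79.9, 81.6 and 73.2 CPM in input and 66.9, 54.6 and 40.8 CPM in IP, a log2 ratio of −0.53 ± 0.29 that did not pass (adjusted p = 0.105 in the same test). So 2 sequences that end alike were on opposite sides of the median, at 1.91 and −0.19 relative to it, and the difference between them was not tested.

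The highest ratio in WT was that of miR-485-5p, which represses synaptic proteins in neurons, at 26.4, 33.7 and 31.9 CPM in input and 152, 158 and 197 CPM in IP. Its log2 ratio was 2.46 ± 0.23 (adjusted p = 5.7e-09, by edgeR's quasi-likelihood test after Benjamini-Hochberg adjustment), and miR-485-3p was also higher (1.62 ± 0.34). miR-409-3p read 556, 587 and 590 CPM in input and 1366, 1370 and 1449 CPM in IP (1.27 ± 0.17). miR-382-5p read 119, 111 and 107 CPM in input and 222, 233 and 316 CPM in IP (1.19 ± 0.24). For miR-485-5p, miR-409-3p and miR-382-5p every IP library exceeded every input library.

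**Figure D3:**
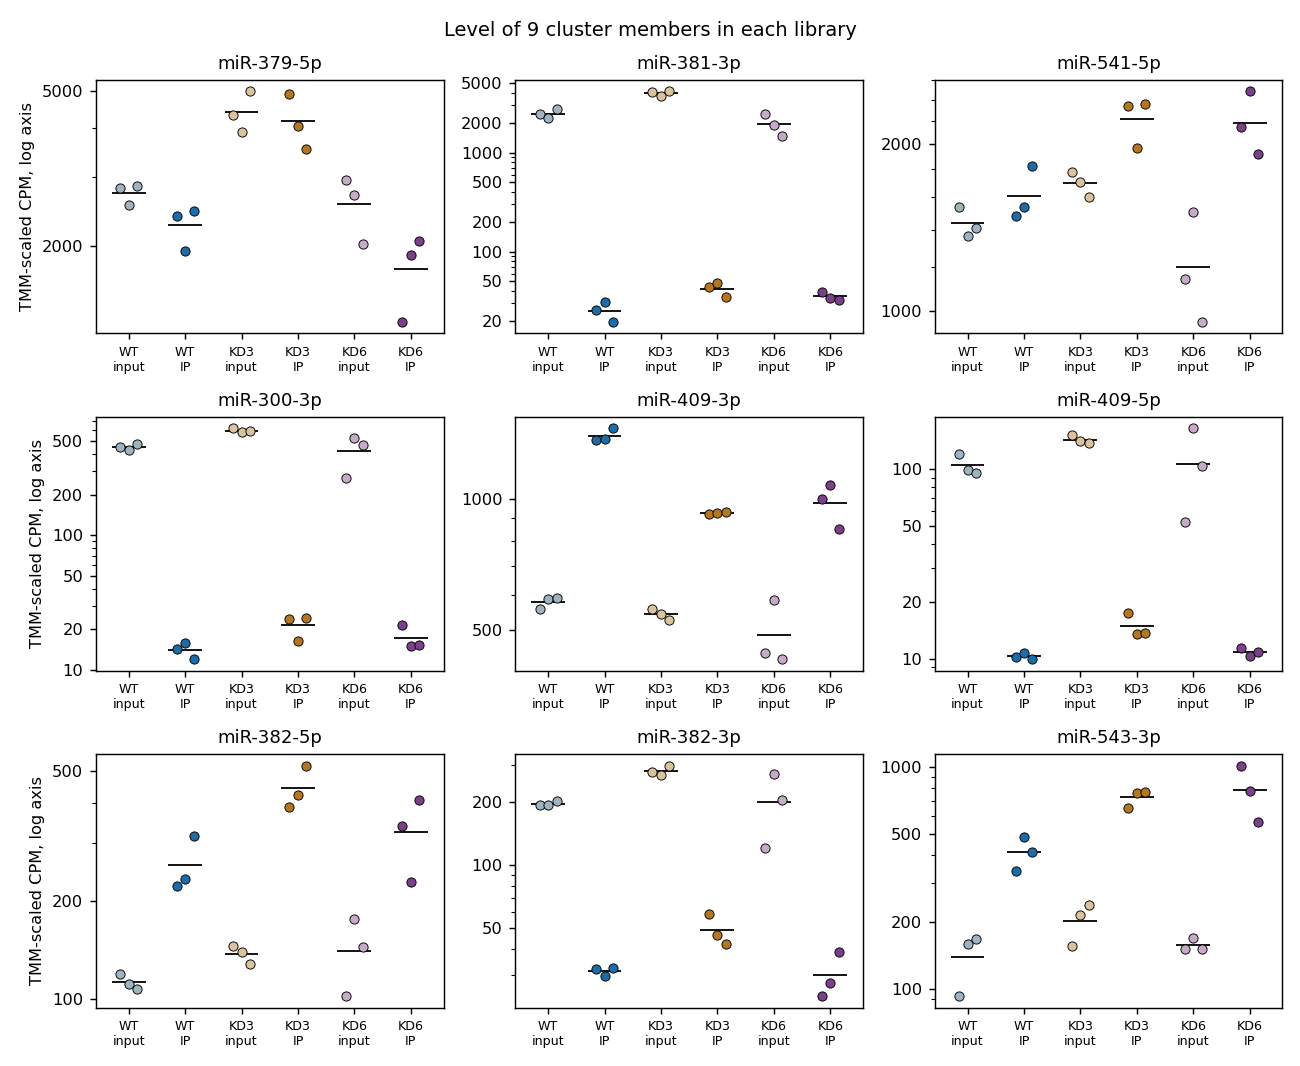
TMM-scaled CPM, on a log axis, of 9 members in each of the 18 libraries, with lines at the mean of 3. miR-381-3p, miR-300-3p, miR-409-5p and miR-382-3p are lower in every IP library than in every input of the same condition, and miR-409-3p, miR-382-5p and miR-543-3p higher.

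Of the 3 most abundant members, miR-379-5p and miR-541-5p did not pass in WT. miR-379-5p, the most abundant of all at 3233 CPM over the inputs, read 2814, 2539 and 2855 CPM in WT input and 2387, 1936 and 2450 CPM in WT IP, with a log2 ratio of −0.28 ± 0.20 that lay 0.07 above the median of all miRNAs (adjusted p = 0.237, by edgeR's quasi-likelihood test after Benjamini-Hochberg adjustment). miR-541-5p, ranked 3 in the cluster by input level, read 1538, 1364 and 1408 CPM in input and 1479, 1539 and 1820 CPM in IP (0.17 ± 0.19). With any 1 WT library left out, the TMM scale shifted and the miR-379-5p ratio was 0.46 to 0.56, still not past the threshold. The miR-541-5p ratio was 0.92 to 1.01 in those 6 fits and passed in each, and under RLE it was 0.47 and passed, but in 2 of the 6 RLE fits with a library left out (0.37 to 0.54). Libraries overlapped for miR-541-5p, and for miR-379-5p every IP library was a little below every input library. miR-134-5p, the regulator of dendritic spines, was higher at 918, 804 and 982 CPM in IP against 528, 521 and 550 CPM in input (0.76 ± 0.18, adjusted p = 0.000715 in the same test). miR-411-5p was lower, at 359, 360 and 311 CPM against 694, 687 and 829 CPM (−1.10 ± 0.19), and so was miR-329-5p (−1.17 ± 0.27). With a WT library left out, miR-411-5p was −0.39 to −0.19 under TMM and passed in 0 of 6 fits, and −0.83 to −0.72 under RLE and passed in 6. For miR-329-5p these were −0.73 to −0.25, past the threshold in 1 fit, and −1.28 to −0.68, past it in 5.

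At the ends of the cluster, miR-379-3p had a log2 ratio of 0.13 ± 0.26 and miR-410-5p one of 0.38 ± 0.91, neither past the threshold. With a WT library left out miR-379-3p passed in 6 of 6 fits under TMM (0.72 to 1.04) and in 0 of 6 under RLE (0.29 to 0.54). miR-410-3p, at the far end, read 13.2, 22.9 and 29.2 CPM in WT input and 3.35, 4.02 and 6.16 CPM in WT IP (−2.24 ± 0.58, adjusted p = 0.00194, edgeR quasi-likelihood with Benjamini-Hochberg adjustment). miR-410-5p had 0, 0 and 28.0 counts in the 3 WT IPs, so that a single library set its value. miR-410-3p passed in 2 of the 6 TMM fits with a WT library left out (−1.72 to −1.20). Without the library that set the miR-410-5p value, replicate C of the WT IP, the log2 ratio of miR-410-5p was −5.72.

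The 2 arms of a hairpin come from the same precursor and are compared within a library, so their ratio does not depend on library scaling. Of the 20 cluster hairpins with both arms tested, 7 shifted toward the 5p arm and 5 toward the 3p arm in WT IP, against 89 of 142 hairpins (62.7%) shifted in either direction in the whole table. The median shift was 1.23 toward 5p on the log2 scale in the cluster and −0.01 over all 142 hairpins. In WT input all 3 libraries had more 5p than 3p reads for 9 hairpins and more 3p than 5p reads for another 9.

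Arms of one hairpin moved in opposite directions in several cases, among them miR-409, miR-382 and miR-667. For miR-409, the log2 ratio of 5p to 3p reads was −2.47 ± 0.23 (SD, n = 3) in WT input and −7.06 ± 0.10 in WT IP, a change of −4.60 ± 0.30 (SE, adjusted p = 3.4e-11, edgeR quasi-likelihood with Benjamini-Hochberg adjustment). For miR-382 the ratio went from −0.81 ± 0.11 to 3.01 ± 0.25, a change of 3.83 ± 0.32 (adjusted p = 1.95e-09 in the same test), so the 3p arm led in every WT input and the 5p arm in every WT IP. miR-667 turned the other way, from 0.98 ± 0.19 to −3.09 ± 0.19 (−4.09 ± 0.55). The leading arm also changed from 3p to 5p for miR-376b, whose 3p arm had 1.0, 0 and 0 counts in WT IP, and for miR-485, whose shift of 0.83 ± 0.39 did not pass (adjusted p = 0.0691, by edgeR's quasi-likelihood test after Benjamini-Hochberg adjustment). Both arms of miR-485 were higher in WT IP, and miR-376b-5p did not pass there.

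Of the remaining hairpins with large shifts in WT, miR-380 (−4.23 ± 1.10), miR-329 (−1.84 ± 0.38) and miR-411 (−1.45 ± 0.34) moved toward 3p. The miR-380 value rests on few reads, with 3.0, 0 and 1.0 counts of its 5p arm in WT IP and 3.0, 15 and 18 of its 3p arm. miR-376b, miR-376a, miR-541 and miR-494 (3.85 ± 0.90) moved toward 5p. The 3p arm of the first 3 had at most 1.0 count in all WT IPs, so their fitted shifts depend on a prior count and are given from pooled counts, with intervals that cover counting error only. Pooled over libraries, the shift was 6.04 on the log2 scale for miR-376b (95% conditional exact interval 3.40 to 11.4) and 4.26 for miR-541 (1.67 to 9.60), and for miR-376a it was at least 3.18 with 3 counts over the group as the limit. miR-411 and miR-541 kept the 5p arm in the lead in every WT library, and miR-541-3p had 13.0, 8.0 and 10.0 counts in the inputs and 1.0, 0 and 0 in the IPs. The miR-376a libraries overlapped. Its shift passed in 2 of the 6 fits that left out 1 library, where its adjusted p reached 0.293 (edgeR's quasi-likelihood test after Benjamini-Hochberg adjustment).

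**Figure D4:**
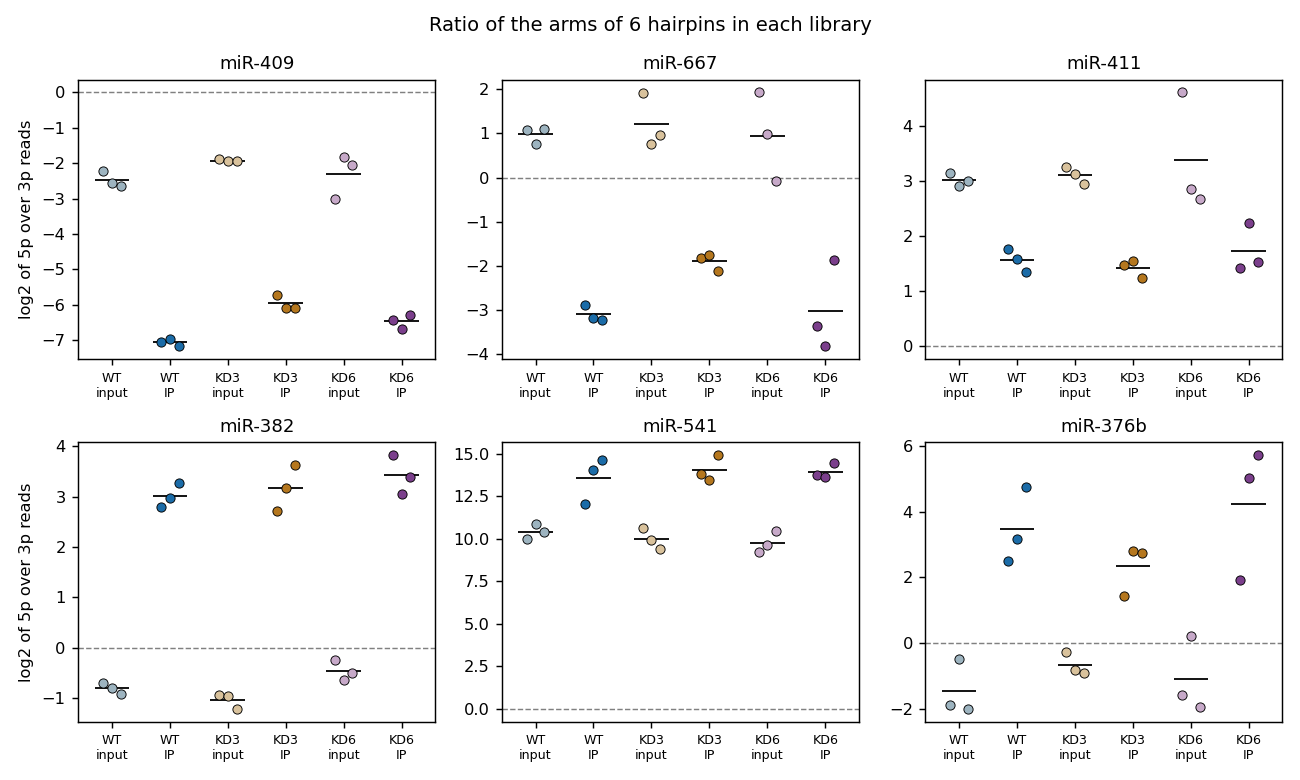
Log2 of 5p over 3p reads for 6 hairpins in each library, with 0.5 added to each count, lines at the mean of 3 and a dashed line where the arms are equal. Points with no read in an arm, as for miR-376b and miR-541 in IP, depend on that addition. miR-382 and miR-376b cross from below 0 in WT and KD3 input to above 0 in IP, miR-667 crosses the other way, and miR-409 stays below 0.

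The same comparison in knockdown cells gave ratios of similar size. In KD3, 12 members were higher and 29 lower in IP, where 362 of 550 miRNAs (65.8%) passed, 27.6% higher and 38.2% lower. In KD6, 14 were higher and 27 lower, where 379 (68.9%) passed, 30.5% higher and 38.4% lower. Libraries of the 2 groups were apart for 45 members in KD3 and 29 in KD6, against 73.8% and 56.4% of all miRNAs. Cluster medians were −0.90 and −0.79, against −0.26 and −0.35 for all miRNAs. With 1 library left out under TMM, the median of all miRNAs lay at 0.29 to 0.46 in KD3 and −0.54 to 0.41 in KD6. The zero of the scale thus shifted there as it did in WT, and the counts given here for KD3, KD6 and all 3 conditions are those of the reported fit. The 3 comparisons use separate libraries, and 9 members were higher in all 3 and 22 lower in all 3 (16.1% and 39.3% of those tested), against 117 and 178 of all 550 (21.3% and 32.4%). No member was called in opposite directions, and 7 passed in none of the 3.

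miR-381-3p read 4097, 3696 and 4159 CPM in KD3 input and 43.5, 48.6 and 35.0 CPM in KD3 IP (−6.56 ± 0.26), and 2445, 1917 and 1482 CPM in KD6 input and 39.3, 33.9 and 32.8 CPM in KD6 IP (−5.78 ± 0.26). Its IP libraries were thus far below its inputs in all 3 conditions. The log2 ratio of miR-300-3p was −4.79 ± 0.27 in KD3 and −4.62 ± 0.28 in KD6, that of miR-299a-3p −3.61 ± 0.32 and −3.43 ± 0.32, that of miR-409-5p −3.27 ± 0.29 and −3.38 ± 0.29, and that of miR-382-3p −2.53 ± 0.26 and −2.77 ± 0.26. The smallest input library, replicate A in KD6, had 151 CPM of miR-299a-3p and 52.8 CPM of miR-409-5p, the lowest of the inputs for each. Without it, KD6 had 11 members higher and 28 lower, and with total mapped reads as library size 4 higher and 34 lower.

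Among higher members, miR-485-5p rose to 210, 240 and 186 CPM in KD3 IP from 37.6, 39.7 and 45.7 CPM (2.37 ± 0.23) and to 294, 278 and 220 CPM in KD6 IP from 22.6, 33.4 and 22.0 CPM (3.29 ± 0.25). miR-543-3p had ratios of 1.84 ± 0.26 and 2.31 ± 0.27, miR-382-5p of 1.69 ± 0.24 and 1.16 ± 0.24, miR-409-3p of 0.77 ± 0.17 and 1.00 ± 0.18, and miR-134-5p of 0.87 ± 0.18 and 0.58 ± 0.18. The miR-134-5p ratio in KD6 was −0.21 with total mapped reads as library size, and 0.37 with KD6 input replicate A left out, where it did not pass (adjusted p = 0.0846, by edgeR's quasi-likelihood test after Benjamini-Hochberg adjustment). miR-541-5p passed in KD6 (0.86 ± 0.19, adjusted p = 0.000379) and not in KD3 (0.39 ± 0.19, adjusted p = 0.0711, both edgeR quasi-likelihood with Benjamini-Hochberg adjustment). In KD3 it passed with RLE factors (0.63) and in 6 of 6 fits with a KD3 library left out (0.82 to 1.14 under TMM, 0.57 to 0.74 under RLE).

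In KD6, miR-411-3p was higher (0.86 ± 0.32), though not without replicate A of the KD6 input (0.36). It did not pass in WT or KD3 (0.35 ± 0.31 and 0.63 ± 0.31), but did so there in each of the 6 TMM fits with a library left out. In KD6 miR-379-5p was lower (−0.55 ± 0.20, adjusted p = 0.0206, by edgeR's quasi-likelihood test after Benjamini-Hochberg adjustment), 0.20 below the median of all miRNAs, with overlapping libraries. With RLE factors miR-379-5p did not pass in KD6 (−0.38, adjusted p = 0.137 in the same test). miR-411-5p was lower in KD3 (−1.07 ± 0.19, and −0.55 to −0.41 with a library left out under TMM, past the threshold in 5 of 6 fits) and at −0.38 ± 0.19 in KD6, where it did not pass, although without that same library it was −0.70 and passed. miR-410-3p was lower in both (−2.09 ± 0.59 and −3.58 ± 0.63), with overlapping libraries in KD6, where input replicate A had 0 counts, and miR-379-3p was higher in KD3 (0.77 ± 0.26) and at −0.36 ± 0.27 in KD6. miR-376a-3p had 1.0 count in all of KD3 IP, and in KD6 it had 0 there and 0, 5.0 and 219 counts in the inputs.

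Arms parted in the knockdown too, though not every shift named in WT passed there. Of the 20 hairpins, 5 shifted toward 5p and 7 toward 3p in KD3, where 88 of 142 (62.0%) shifted in either direction, and 8 and 5 did so in KD6, where 77 (54.2%) shifted. The change for miR-409 was −4.05 ± 0.30 in KD3 and −4.28 ± 0.32 in KD6, for miR-382 4.22 ± 0.32 and 3.92 ± 0.33, for miR-667 −3.12 ± 0.54 and −3.44 ± 0.62, and for miR-411 −1.69 ± 0.34 and −1.39 ± 0.36. In both conditions the leading arm of miR-382 was 3p in every input and 5p in every IP. miR-541-3p had 0 reads in every KD3 and KD6 IP, against 14, 20 and 17 counts in KD3 input and 0, 11.0 and 7.0 in KD6 input, so the change for miR-541 was at least 3.11 and 2.87 toward 5p. The change was 3.17 ± 0.95 for miR-376b in KD3, and in KD6, where its 3p arm had 2.0 counts in all IPs, 5.71 from pooled counts (95% conditional exact interval 3.74 to 8.83). For miR-329 it was −1.69 ± 0.38 and −0.98 ± 0.40, the latter past the threshold in 1 of 6 fits with a library left out. Without replicate C of the KD6 input, 8 hairpins in place of 13 passed in KD6.

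Whether the knockdown changed the IP ratio was tested as the difference between 2 ratios in one model. No member passed in KD3 against WT, in KD6 against WT or in KD6 against KD3 (edgeR quasi-likelihood with Benjamini-Hochberg adjustment), where 0, 0 and 1 of all 550 miRNAs (0%, 0% and 0.182%) did. Members with an unadjusted p under 0.05 numbered 0, 10 and 7, against 17, 98 and 92 of all miRNAs. DESeq2 called 0, 3 and 4 members, beside 0, 35 and 28 of all 550 miRNAs (0%, 6.36% and 5.09%). Each pair of these 3 differences shares the libraries of 1 condition.

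The smallest p for KD3 against WT was that of miR-409-3p, whose ratio was lower by 0.50 ± 0.24 (adjusted p = 1.00, by edgeR's quasi-likelihood test after Benjamini-Hochberg adjustment). For KD6 it was that of miR-3072-3p, the member beyond miR-410, with a difference of −2.39 ± 0.79 from WT and −2.48 ± 0.79 from KD3 (adjusted p = 0.145 and 0.154 in the same tests). Its counts were 18.2, 34.7 and 42.2 in WT IP, 33.5, 9.3 and 42.2 in KD3 IP, and 0, 1.0 and 7.5 in KD6 IP, so the KD6 value rests on few reads. The miR-381-3p ratio was 0.84 ± 0.30 less negative in KD6 than in WT (adjusted p = 0.169 in the same test). Without replicate C of the KD6 IP, 3 members passed against WT and 5 against KD3. For the ratio of the arms, no cluster hairpin passed in any of the 3 differences, the smallest adjusted p being 0.890, 0.573 and 0.130 (edgeR's quasi-likelihood test after Benjamini-Hochberg adjustment).

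Input libraries show abundance before IP, and the 3 comparisons among them share libraries. In KD3 input against WT input no member passed, as no miRNA of the 550 did (0%), while 7 members had an unadjusted p under 0.05. DESeq2 called 7 members, beside 13 of 550 miRNAs (2.36%), and a fit to only the 6 libraries compared called 20, beside 77 of 530 (14.5%). The cluster median was 0.36 and the median of all miRNAs −0.17, and 44 of the 56 ratios were positive, against 188 of 550. Groups did not overlap for 23 members, against 199 (36.2%) of all miRNAs. miR-379-5p had the smallest p, at 4322, 3918 and 4978 CPM in KD3 input against 2814, 2539 and 2855 CPM in WT input (0.69 ± 0.20, adjusted p = 0.165, edgeR quasi-likelihood with Benjamini-Hochberg adjustment). Every KD3 library was thus above every WT library for this member, and the miR-381-3p ratio was 0.69 ± 0.21.

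In KD6 input against WT input 1 member, miR-379-3p, was higher (0.94 ± 0.27, adjusted p = 0.0490, by edgeR's quasi-likelihood test after Benjamini-Hochberg adjustment), among 23 of all 550 miRNAs (4.18%, with 0.364% higher and 3.82% lower). It read 22.6, 32.9 and 26.5 CPM in KD6 against 14.8, 16.9 and 13.0 CPM in WT, without overlap. The first of these, in replicate A of the KD6 input, came from only 5.5 counts. The other arm, miR-379-5p, read 2943, 2704 and 2027 CPM in KD6 input. With the small library, replicate A of the KD6 input, left out, 2 members passed, and with any other single library left out none did. With the replicate letter as a block none passed.

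In KD6 input against KD3 input 3 members were lower and none higher, where 24 miRNAs (4.36%) passed, 1.27% higher and 3.09% lower. These were miR-381-3p (−1.04 ± 0.21, adjusted p = 0.0129), miR-299a-3p (−1.38 ± 0.29, 0.0129) and miR-379-5p (−0.79 ± 0.20, 0.0303, each edgeR quasi-likelihood with Benjamini-Hochberg adjustment). In KD6 input miR-299a-3p read 151, 241 and 205 CPM, against 516, 502 and 566 CPM in KD3 input and 422, 365 and 412 CPM in WT input. It remained past the threshold with RLE factors (−1.31, adjusted p = 0.00725 in the same test), whereas miR-381-3p and miR-379-5p did not (0.0560 and 0.164). With any library of the comparison other than replicate A of the KD6 input left out, no member passed under TMM, and without that replicate 4 did.

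Members were also described by their sequence. Over the 53 tested members with a RefSeq sequence, the WT log2 ratio of IP to input had a Pearson r of 0.11 with the share of uridines and −0.33 with the share of adenosines, against 0.06 and −0.29 over 475 miRNAs. The points share the same 6 libraries, and members of a hairpin or family share sequence, so these values are a description. Median uridine share was 29.55% in the 10 higher members with a sequence and 27.3% in the 26 lower ones. The 25 members that begin with uridine had a median of −1.59 in WT, and 201 miRNAs of the whole table that begin with uridine had one of 0.22. Of members that begin with guanosine, 3 of 6 were higher and 1 lower, with a median of 0.25, and of all 46 miRNAs that begin with guanosine 15 were higher and 15 lower, with a median of 0.09.

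The rest of the imprinted domain, on the side of Meg3 and the Rtl1 antisense transcript, gave little signal in these cells. Its 38 miRNAs together held at most 0.00086% of miRNA reads in any library, and 1 of them entered the tests, so the cluster was not compared with them as a group. The share of miRNA reads that the cluster held in the same libraries was 0.646% or more.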

How the data were processed

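The authors mapped small RNA reads to mm10 with SeqImp and deposited estimated counts of reads per miRNA locus, whose values need not be whole (54 members had such a value). The submitters' processing notes name Ensembl 89 and miRBase 21, and the version of SeqImp is not given in the sources used here. Values were summed per mature miRNA (78 miRNAs had several loci, none of them a cluster member), rounded to whole numbers and tested with edgeR 4.0.16 in R 4.3.3 (TMM factors, filterByExpr, 6 group means over 18 libraries, quasi-likelihood test, Benjamini-Hochberg threshold of 0.05 over all 550 miRNAs). Arm ratios were tested with edgeR quasi-likelihood on both arms of 142 hairpins with a term for each library. Standard errors are of log2 ratios, and CPM values use TMM-scaled library sizes, except for marker lists. DESeq2 1.42.0, limma 3.58.1 (arm ratios, pseudocount 0.5), RLE factors, other library sizes, no filter, the largest locus only, a replicate block and leaving out each library were alternatives. On simulated counts for WT, edgeR recovered 58.9% of 2-fold and 85.6% of 4-fold changes among 513 miRNAs, and the arm test 89.5% of 4-fold changes among 135 hairpins. The simulated counts started from WT input means, with changes balanced in direction and set in a minority of miRNAs. In the real WT comparison 65.6% of miRNAs passed and some ratios were far beyond 4-fold, so these rates need not hold there.

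Members, lists and the tests on them were chosen with earlier results of these data known. Named members were both arms of miR-379 and miR-410, the 10 most abundant in input, up to 6 in each direction per IP comparison with a mean of at least 100 CPM, up to 5 per direction in other comparisons (or the one with the smallest p), the 5 hairpins with the largest arm shifts in each direction in WT, and members with a background role. miR-485-3p, miR-299b-3p, miR-376b-3p, miR-541-3p, miR-1197-3p and the single arms of miR-667 were added after their values were seen, as was the test of arm ratios between conditions. Deviations of same-lettered libraries had a positive r in every pair for KD3 against WT input (0.61, 0.20 and 0.35 over 188 miRNAs) and KD6 against KD3 input (0.24, 0.34 and 0.32). The same held for KD6 against WT input (0.26, 0.06 and 0.43), with r near 0 for letter B. In each IP against input comparison at least 1 pair had a negative r. The letters come from the labels, which do not say what they mark. Mapped reads ranged from 241109 to 15099781 per library, and limits from 0 reads use 3 counts and cover counting error only.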

Additional observations from a re-analysis of the deposited data

How the results depend on the processing

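Counts of calls between conditions depended on the processing, and the cause was not tested. Members called in KD6 against WT input numbered 1, but 2 with RLE factors, library size alone, total mapped reads or the largest locus, 4 without a filter or with only the libraries compared, 3 with DESeq2, and 0 to 2 with a library left out (0 to 3 under RLE). In KD6 against KD3 input they numbered 3, but 1 with RLE factors, library size alone or only the libraries compared, 0 with total mapped reads, and 0 to 4 with a library left out (1 to 6 under RLE). Changes in the IP ratio numbered 0 for KD6 against WT, but 7 with total mapped reads, 1 without a filter, 3 with DESeq2 and 0 to 3 with a library left out (0 to 5 under RLE). For KD6 against KD3 they numbered 0, but 1 with library size alone or total mapped reads, 3 without a filter, 4 with DESeq2 and 0 to 5 with a library left out (0 to 6 under RLE). KD3 against WT input had 0, but 2 without a filter, 7 with DESeq2 and 20 with only the libraries compared. IP against input in KD6 had 41 members called, but 27 with only the libraries compared, and its arm ratios had 13 hairpins called, but 8 to 14 with a library left out.

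With the replicate letter as a block, 0 members in place of 1 passed in KD6 against WT input, and no other count of calls moved by over 1.5 times. The block on only the libraries compared, chosen after seeing the data as were the RLE fits with a library left out, gave 3 there, 1 in KD6 against KD3 input and 27 in IP against input in KD6. Of ratios past the threshold in the reported fit or in the alternative, those that turned were miR-134-5p in KD6 with total mapped reads (−0.21), miR-410-5p in WT (−5.72 to 1.63 with a library left out, and −5.82 under RLE without replicate C of the IP), miR-379-5p in KD3 (0.24 to 0.63 with a library left out, the highest without replicate B or C of the IP) and miR-379-5p in KD6 (−0.60 to 0.12 with a library left out, the highest without replicate A of the IP). Ratios that did not pass also changed sign, among them miR-379-5p (0.46 to 0.56) and miR-495-3p (0.10 to 0.48) in WT with a library left out. As a share of all mapped reads the cluster held 0.967% in WT input, 0.717% in WT IP, 1.34% in KD3 input, 0.806% in KD3 IP, 1.01% in KD6 input and 0.519% in KD6 IP. Replicate A of the KD6 input, with 241109 mapped reads, limits what low members show there.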
